A study of Mus musculus with 9 samples.

Results

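The corpus lies between the caput and the cauda, and spermatozoa pass the 3 segments in that order. If the miRNA cargo of epididymosomes, the vesicles shed into the lumen of the duct, altered evenly along the tube, each corpus value would sit midway between those of the segments on either side. Here the corpus was set against that midpoint. For each of 358 miRNAs, out of 358 in the data, the mean log2(CPM + 1) of the 3 corpus libraries was compared with the average of the caput mean and the cauda mean, where CPM is the count of a miRNA scaled to a total common to all libraries. The resulting log2 difference is called the departure of the corpus. It is positive where the corpus lay above a straight caput-to-cauda line and negative where it lay below. The 3 caput, 3 corpus and 3 cauda libraries all came from epididymosomes of male inbred Swiss mice aged 8 weeks, recovered on a density gradient from luminal fluid after the vessels had been flushed of blood. RNA of several mice was pooled for each library, so the spread between libraries is the spread between pools.

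A miRNA is a short RNA that directs a silencing complex to messenger RNAs, and it recognises its targets mainly through its seed, bases 2 to 8 from the 5′ end. The epididymal epithelium of each segment has its own pattern of gene expression, and the vesicles it releases carry proteins, lipids and small RNAs that can be taken up by passing spermatozoa. In the mouse the corpus is a slender stretch in which spermatozoa continue to mature after leaving the caput and before they are stored in the cauda, whose duct is wrapped in thicker smooth muscle.

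Departures were found in both directions, and which of them had more calls depended on how the libraries were scaled. With library-size scaling the corpus was higher than the midpoint for 15 miRNAs, 4.19% of the 358, and lower for 7, 1.96% of them, by limma with a Benjamini-Hochberg adjusted p under 0.05 and a departure of at least 1, that is 2-fold; with TMM scaling, which sets libraries level on the bulk of their miRNAs, 15 were higher and 19 lower. By shape, 13 of the 15 were peaks, with the corpus mean above both of its neighbours, and 2 of the 7 were troughs, with the corpus mean below both. The other 7 called miRNAs lay between caput and cauda and nearer to the caput on the log2 scale. Over all 358 miRNAs, 95 (26.5%) were peaks and 45 (12.6%) troughs with library-size scaling. With TMM scaling 70 were peaks and 100 troughs. Of the 6 most abundant miRNAs only miR-141-3p was among the 22.

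Sequences are shown for the miRNAs that carry these shapes, from RefSeq on GRCm38.p6, with the seed in capitals. A RefSeq mature sequence was used for 299 of the 358 miRNAs and for 15 of the 22 that departed. The others had none under their name or were left out of this step. The peaks are represented by the miRNAs below, the first a product of an intron of Pom121 (chr5:135383783-135383805, minus strand), the next of a small nucleolar RNA gene within Ncl (chr1:86352062-86352087, minus strand), then a product of the miR-17 to miR-92 host gene Mir17hg (chr14:115044476-115044496, plus strand, with another copy at chrX:52741854-52741874, minus strand), one of an intron of Tln2 (chr9:67236700-67236721, minus strand), one at chr6:124717917-124717938 (minus strand) and one of an intron of Pank1 (chr19:34820700-34820722, minus strand).
miR-7033-5p: uCUCCAGGagucugaggggcagg
miR-3535: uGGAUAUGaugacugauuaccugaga
miR-92a-3p: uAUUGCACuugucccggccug
miR-190a-5p: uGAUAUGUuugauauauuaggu
miR-141-3p: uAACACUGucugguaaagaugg
miR-107-3p: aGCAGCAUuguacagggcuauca

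No seed was shared among those 6. The late fall, in which most of the fall on the log2 scale came between corpus and cauda, is represented by a product of an intron of Trpm3 (chr19:22750610-22750631, plus strand). The troughs are represented by a product of an exon of a long non-coding RNA (chr4:88910614-88910635, minus strand) and by one at chr19:6264857-6264877 (plus strand), and the late rise by one from an exon of another non-coding RNA (chr1:20682834-20682855, plus strand) and one from an intron of Myh7 (chr14:54975710-54975731, minus strand).
miR-204-5p: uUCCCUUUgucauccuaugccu
miR-31-5p: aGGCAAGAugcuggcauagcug
miR-192-5p: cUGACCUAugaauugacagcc
miR-133b-3p: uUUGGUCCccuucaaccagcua
miR-208b-3p: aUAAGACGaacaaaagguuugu

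The libraries differed in depth and in how far a few miRNAs filled them. Reads on miRNAs numbered 8274421 to 11306605 in the caput, 1548581 to 6190324 in the corpus and 2001086 to 5896748 in the cauda, so that 10 CPM stood for 15.5 to 113 reads. miR-10a and miR-10b together took 50.5% to 71.3% of the caput reads, with the highest share in caput replicate 2, 50.3% to 53.2% of the corpus reads and 33.2% to 34.5% of the cauda reads. The number of miRNAs at 10 CPM or more was 293 to 297 in the corpus libraries, 231 to 302 in the caput and 300 to 323 in the cauda. By an exact two-sided permutation test over all 84 choices of 3 libraries, for which the smallest p is 0.0119, the corpus mean was not set apart from the other 6 libraries in this number (difference 6.67, adjusted p = 0.857) or in the effective number of miRNAs, the exponential of the Shannon entropy (difference 1.498, adjusted p = 0.857). The test pools caput and cauda libraries, whose mean numbers at 10 CPM were 265 and 312 beside 295 in the corpus. It therefore cannot decide whether the corpus lay off their midpoint.

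The scaling of the libraries bore on the count of miRNAs below the line. The median departure over all 358 was 0.10 with library-size scaling, and 205 miRNAs (57.3%) lay above the line. With TMM scaling the median was -0.12 and 151 (42.2%) lay above. The departures thus moved down together by about the same amount, and 21 of the 22 calls stood; higher calls were 68.2% of all calls with library-size scaling and 44.1% with TMM scaling. Median-of-ratios scaling gave 16 higher and 16 lower. Leaving out caput replicate 2 gave 16 higher and 13 lower.

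**Figure D1:**
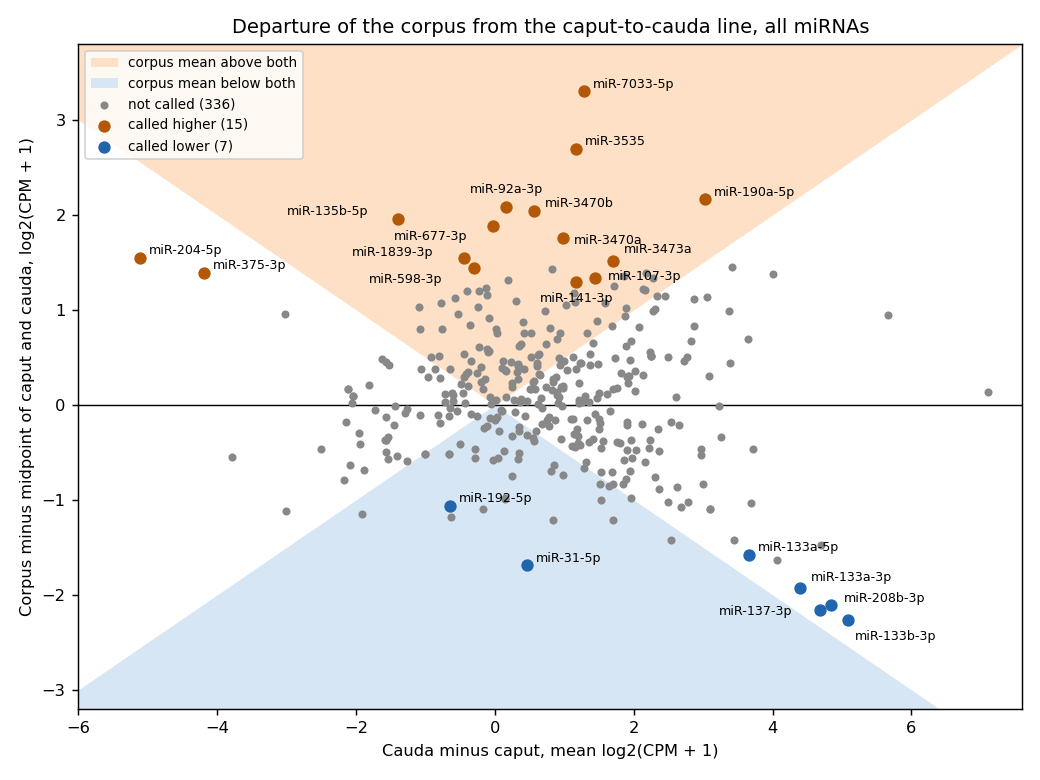
Each point is 1 of the 358 miRNAs, placed by the cauda minus caput difference (x axis) and by the departure of the corpus from the midpoint (y axis), both in log2(CPM + 1); shading marks the areas in which the corpus mean is above or below both other segments. Orange points are the 15 miRNAs called higher and blue points the 7 called lower; miR-204-5p and miR-375-3p stand apart at the left, and the late-rising muscle miRNAs and miR-137-3p at the lower right.

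The largest departures were peaks of miRNAs with little known function. miR-7033-5p measured 7.78, 17.5 and 48.6 CPM in caput libraries, 122, 719 and 329 CPM in corpus libraries and 28.5, 29.3 and 128 CPM in cauda libraries. All corpus libraries were above all caput libraries, but the lowest of them, replicate 1, was below cauda replicate 3. Its departure was 3.30 (SE 0.62, adjusted p = 0.0049). miR-3535, whose host is a small nucleolar RNA gene, gave 22.4, 32.5 and 32.1 CPM in caput libraries, 128, 286 and 633 CPM in corpus libraries and 60.0, 88.3 and 52.2 CPM in cauda libraries. All of the corpus libraries were above the other 6, although the corpus values spread widely among themselves, with a departure of 2.70 (SE 0.45, adjusted p = 0.0026). These calls held without any 1 library.

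miR-92a-3p, the last member of the miR-17 to miR-92 cluster, a set of growth-promoting miRNAs made from 1 transcript, also peaked. It read 164, 107 and 182 CPM in caput libraries, 895, 1086 and 302 CPM in corpus libraries and 152, 181 and 164 CPM in cauda libraries. Corpus replicate 3 was far below the other corpus libraries and still above each of the other 6 libraries. The departure was 2.08 (SE 0.41, adjusted p = 0.0049), with an adjusted p of 0.0629 once corpus replicate 2 was left out. miR-190a-5p, encoded in an intron of the talin gene Tln2, measured 20.1, 2.54 and 13.1 CPM in caput libraries, 190, 96.0 and 119 CPM in corpus libraries and 93.9, 129 and 45.8 CPM in cauda libraries. Its corpus values were above all caput values and overlapped those of the cauda, and its departure of 2.16 (SE 0.52, adjusted p = 0.017) had an adjusted p of 0.101 without corpus replicate 1.

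miR-3470b and miR-3470a accumulated alike. miR-3470b gave 99.2, 195 and 482 CPM in caput libraries, 992, 1156 and 1032 CPM in corpus libraries and 281, 303 and 353 CPM in cauda libraries, without overlap between the corpus and the rest (departure 2.04, SE 0.41, adjusted p = 0.0049). For miR-3470a the caput libraries held 84.9, 118 and 408 CPM, the corpus libraries 801, 739 and 742 CPM and the cauda libraries 263, 336 and 357 CPM. Again no library of another segment reached the corpus (departure 1.75, SE 0.42, adjusted p = 0.017). The counts of this pair may share reads, since the ratio of the former to the latter stayed within 0.902 and 1.66 in all 9 libraries. The call of miR-3470a, unlike that of miR-3470b, was lost without any 1 corpus library, with adjusted p values of 0.0752, 0.0802 and 0.0549 for replicates 1, 2 and 3.

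Among the miRNAs of known epithelial function, miR-141-3p showed the most precise peak. It belongs to the miR-200 family, which maintains the epithelial state by silencing the repressors Zeb1 and Zeb2. The caput libraries held 19488, 15427 and 18730 CPM, the corpus libraries 66249, 58422 and 72410 CPM and the cauda libraries 32901, 38547 and 49859 CPM. All 3 corpus values exceeded all others, at a departure of 1.30 (SE 0.19, adjusted p = 0.0016) that was called under every alternative with a test. miR-107-3p, from an intron of the pantothenate kinase gene Pank1, measured 213, 108 and 248 CPM in caput libraries, 725, 824 and 697 CPM in corpus libraries and 624, 559 and 335 CPM in cauda libraries. It too had no overlap, although corpus replicate 3 and cauda replicate 1 were close, and its departure was 1.33 (SE 0.36, adjusted p = 0.036). This call was lost without any 1 corpus library or without cauda replicate 2 or 3, at adjusted p values from 0.0578 to 0.176.

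The remaining 5 peaks were of lower abundance. Of these, miR-135b-5p, miR-598-3p and miR-677-3p reached a mean of 10 CPM in the corpus only. They thus entered the test through the segment in which they were high. With a mean of 10 CPM required in all 3 segments, 12 miRNAs were called higher. miR-135b-5p, a member of a family that targets Apc of the Wnt pathway, gave 8.49, 7.61 and 6.03 CPM in caput libraries, 16.3, 28.2 and 14.9 CPM in corpus libraries and 1.499, 2.29 and 2.88 CPM in cauda libraries. The segments were fully separated, with the cauda lowest (departure 1.96, SE 0.39, adjusted p = 0.0049, and 0.0848 without corpus replicate 2). miR-1839-3p held 28.2, 21.4 and 32.6 CPM in caput libraries, 76.7, 83.4 and 51.7 CPM in corpus libraries and 19.99, 20.1 and 18.8 CPM in cauda libraries, and miR-598-3p held 9.91, 7.49 and 11.1 CPM, then 26.2, 25.8 and 21.3 CPM, then 6.50, 6.87 and 9.16 CPM. For each of them the corpus was above every other library, with departures of 1.54 (SE 0.35, adjusted p = 0.013) and 1.44 (SE 0.36, adjusted p = 0.023). Without corpus replicate 1 their adjusted p values were 0.0999 and 0.144, and without corpus replicate 2 they were 0.133 and 0.157; miR-598-3p also missed the threshold without corpus replicate 3, caput replicate 1 or cauda replicate 1 or 2, at 0.0574 to 0.0611.

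miR-3473a, from an intron of Syap1, and miR-677-3p, from a small nucleolar RNA gene in an intron of the ATP synthase gene Atp5b, were further peaks with overlap, as were miR-7033-5p and miR-190a-5p. miR-3473a measured 14.7, 13.7 and 41.3 CPM in caput libraries, 111, 159 and 73.0 CPM in corpus libraries and 74.5, 69.1 and 61.4 CPM in cauda libraries, where corpus replicate 3 fell within the cauda range (departure 1.52, SE 0.41, adjusted p = 0.036). For miR-677-3p the values were 3.10, 5.20 and 5.80 CPM, then 8.56, 27.8 and 29.7 CPM, then 1.00, 6.87 and 9.33 CPM, and corpus replicate 1 was below cauda replicate 3 (departure 1.89, SE 0.54, adjusted p = 0.046). With TMM scaling miR-677-3p had an adjusted p of 0.0645, with median-of-ratios scaling one of 0.0529 and with limma-voom one of 0.0859, and its call was lost without any 1 caput library, corpus replicate 2 or 3, or cauda replicate 1 or 2, at adjusted p values from 0.0505 to 0.239. miR-3473a lost its call without caput replicate 1, corpus replicate 1 or 2, or any 1 cauda library, at adjusted p values from 0.0585 to 0.239.

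**Figure D2:**
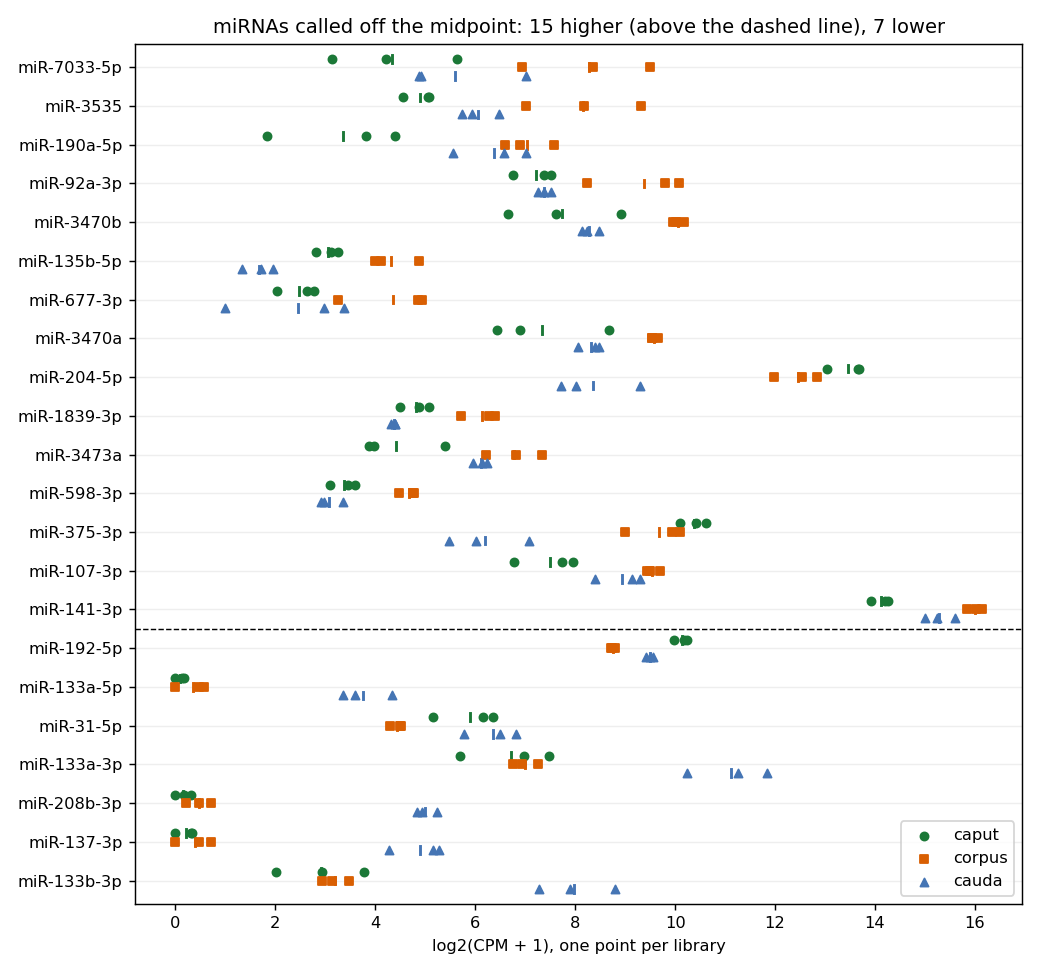
Level of each of the 22 called miRNAs in each of the 9 libraries, in log2(CPM + 1), with circles for caput, squares for corpus and triangles for cauda libraries and short vertical bars at the segment means; the 15 called higher are above the dashed line and the 7 called lower beneath it. The corpus squares of miR-141-3p lie to the right of all its other points, and those of miR-133b-3p lie with its caput circles.

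A peak asks more than a departure, namely that the corpus exceed both of its neighbours. In the 2 pairwise comparisons, which share the corpus libraries, the corpus was higher than the caput for 62 miRNAs (17.3%) and lower for 11 (3.07%), and higher than the cauda for 17 (4.75%) and lower for 47 (13.1%). The corpus passed as higher in both for 7 miRNAs, namely miR-7033-5p, miR-3535, miR-92a-3p, miR-3470b, miR-677-3p, miR-1839-3p and miR-598-3p, and as lower in both for miR-31-5p. Of the 7, miR-677-3p and miR-598-3p had reached the mean of 10 CPM needed for testing in the corpus only. miR-92a-3p was the most even of the 7, with log2 differences of 2.16 from the caput (adjusted p = 0.0045) and 2.00 from the cauda (adjusted p = 0.0070). miR-141-3p missed this count because its difference from the cauda, 0.72 (adjusted p = 0.036), was under 2-fold. When the larger of the 2 p values was adjusted over all 358 miRNAs, no peak or trough passed with limma or with limma-voom on recovered reads, the smallest adjusted p being 0.138 with limma; 15 peaks and 2 troughs were under an unadjusted p of 0.05 with limma, and 15 and 1 with limma-voom. Without caput replicate 1, corpus replicate 1 or corpus replicate 3, limma passed 3, 2 and 1 peaks.

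miR-204-5p and miR-375-3p formed the late fall. miR-204-5p, which is abundant in pigmented and secretory epithelia, measured 8465, 12950 and 13050 CPM in caput libraries, 4027, 7369 and 5934 CPM in corpus libraries and 209, 259 and 631 CPM in cauda libraries. The 3 segments did not overlap, and the corpus lay 1.01 below the caput on the log2 scale (adjusted p = 0.091) and 4.11 above the cauda (adjusted p = 4.4e-06). The departure was therefore 1.55 (SE 0.35, adjusted p = 0.0125, and 0.112 without corpus replicate 2). On a linear CPM scale the corpus mean was at the midpoint of the caput and cauda means, with a log2 ratio of -0.04, so that the departure was one of the log scale.

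miR-375-3p, best known from pancreatic islets and other secretory cells, gave 1368, 1093 and 1561 CPM in caput libraries, 507, 973 and 1089 CPM in corpus libraries and 43.5, 63.6 and 133 CPM in cauda libraries. Caput and corpus came close to each other without meeting, and the cauda libraries were lowest by a wide margin. Its departure of 1.39 (SE 0.39, adjusted p = 0.042) was lost without caput replicate 1 or 2, corpus replicate 2 or 3, or cauda replicate 1 or 2, at adjusted p values from 0.0537 to 0.23, and with limma-voom (0.0549) or without a trend in the prior variance (0.0633). On a linear CPM scale its corpus mean was above the midpoint by a log2 ratio of 0.27.

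Below the line, miR-31-5p and miR-192-5p were the troughs. miR-31-5p, a miRNA of squamous and other epithelia, held 70.2, 34.8 and 81.3 CPM in caput libraries, 22.0, 21.5 and 18.7 CPM in corpus libraries and 111, 88.8 and 53.9 CPM in cauda libraries. The corpus libraries were tightly grouped and below all 6 others, with a departure of -1.69 (SE 0.39, adjusted p = 0.013). Its passenger arm, miR-31-3p, had a departure of -1.42 (SE 0.49, adjusted p = 0.104) at 1.17 to 8.40 CPM in corpus libraries. Without corpus replicates 1, 2 and 3 in turn the adjusted p of miR-31-5p was 0.0528, 0.0709 and 0.0574.

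miR-192-5p, a p53-responsive miRNA of gut, liver and kidney epithelium, was the more abundant trough. It measured 1155, 1009 and 1213 CPM in caput libraries, 417, 444 and 426 CPM in corpus libraries and 748, 717 and 686 CPM in cauda libraries. The segments were fully separated, and the departure was -1.06 (SE 0.29, adjusted p = 0.036). miR-194-5p has a copy near miR-192-5p, at chr19:6264658-6264679, and another at chr1:185313325-185313346, which the counts do not separate. Its departure was -0.56 (SE 0.38, adjusted p = 0.449). The call of miR-192-5p was lost without caput replicate 1, any 1 corpus library, or cauda replicate 1 or 2, at adjusted p values from 0.0794 to 0.171, and with limma-voom (0.0549).

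The other 5 miRNAs below the line were late rises. miR-133b-3p, a miRNA of skeletal and heart muscle, gave 6.63, 3.02 and 12.7 CPM in caput libraries, 10.2, 6.66 and 7.75 CPM in corpus libraries and 237, 441 and 154 CPM in cauda libraries. Caput and corpus overlapped, and the cauda was far above both (departure -2.26, SE 0.45, adjusted p = 0.0049). miR-133a-3p, from the same muscle programme, held 125, 51.0 and 178 CPM, then 153, 122 and 107 CPM, then 2458, 3644 and 1211 CPM, in the same pattern (departure -1.93, SE 0.43, adjusted p = 0.0125, and 0.0622 without corpus replicate 2).

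miR-208b-3p, miR-133a-5p and miR-137-3p were close to absent before the cauda. miR-208b-3p, encoded in an intron of the slow myosin gene Myh7, had 0, 2 and 1 reads in caput libraries, 1, 1 and 1 in corpus libraries and 59, 80 and 163 in cauda libraries, where its level was at least 26.1-fold higher than the corpus floor of 3 reads per library. miR-133a-5p had 1, 0 and 1 reads, then 3, 1 and 0 reads, then 22, 42 and 54 reads, so that its cauda level was at least 10.95-fold above that floor. Caput and corpus could not be told apart at this depth for either of them. miR-137-3p, a neuronal miRNA, had 3, 0 and 2 reads, then 4, 1 and 0 reads, then 69, 82 and 108 reads. Their departures of -2.11 (adjusted p = 0.0049), -1.58 (adjusted p = 0.036) and -2.16 (adjusted p = 0.0049) depended on the pseudocount and were -0.97, -0.56 and -0.95 with 10 CPM in its place; by limma-voom on recovered reads the adjusted p values were 0.153, 0.395 and 0.153. The call of miR-133a-5p was lost without caput replicate 1, any 1 corpus library, or cauda replicate 1 or 2, at adjusted p values from 0.0578 to 0.157.

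As lists of cell type markers, the muscle miRNAs were the only ones with every member below the line under both library-size and TMM scaling. Of 5 miRNAs of striated muscle, 4 were called lower, beside 1.96% of all miRNAs, and the fifth, miR-1a-3p, had a departure of -0.78 (adjusted p = 0.365). Of the 4, miR-133b-3p, miR-208b-3p and miR-133a-5p reached a mean of 10 CPM in the cauda only. miR-133a-5p and miR-133a-3p are arms of 1 hairpin, so the 4 calls are not separate cases. With limma-voom the adjusted p was 0.153 for miR-208b-3p and 0.395 for miR-133a-5p. The summed level of the 5 was 55.5 to 197 CPM in caput libraries, 121 to 167 CPM in corpus libraries and 1412 to 4166 CPM in cauda libraries. The 5 miRNAs of smooth muscle had a median departure of -0.83 and none was called, with sums of 50117 to 89001, 88427 to 121413 and 291696 to 354797 CPM, most of it miR-143-3p. Both arms of the miR-143 hairpin and both arms of the miR-145a hairpin are among them, so they are not 5 separate cases. The striated muscle sum contains the 4 called late rises, and most of it was miR-133a-3p. It is therefore not a measure separate from them. The part of muscle in the late rises was not tested.

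Markers of blood showed no common direction. Of 5 red cell miRNAs, 2 lay above and 3 below the line with none called, miR-451a at 1.21 (adjusted p = 0.262) and miR-486a-5p at -1.10 (adjusted p = 0.141). The 3 below are all miR-486 and not separate cases. Of these, miR-486a-5p and miR-486b-5p had near-identical values and may share reads that the sums count under both names. miR-486a-3p is the other arm and had at most 3 reads in any corpus library. The sums of the 5 were 223 to 848 CPM in caput libraries, 390 to 1106 CPM in corpus libraries and 3030 to 4365 CPM in cauda libraries. Of 5 leukocyte miRNAs, 4 lay above and 1 below with none called and a median of 0.32, at sums of 231 to 530, 515 to 1149 and 392 to 1601 CPM. Of 5 neuronal miRNAs 1 lay above and 4 below, and miR-137-3p alone was called. Their sums were 204 to 508, 168 to 221 and 201 to 245 CPM.

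The epithelial list held 9 miRNAs, of which 7 lay above the line (5 with TMM scaling), 2 below and 1, miR-141-3p, was called. The sums were 21935 to 33757 CPM in caput libraries, 74022 to 85469 CPM in corpus libraries and 46138 to 62241 CPM in cauda libraries, so that all corpus libraries exceeded the rest, and miR-141-3p made up most of each sum. miR-200a-3p, which has the same seed, had a departure of 0.81 (SE 0.30, adjusted p = 0.120), miR-200c-3p one of 0.45 (adjusted p = 0.451), and miR-200b-3p one of -0.41 (adjusted p = 0.506).

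**Figure D3:**
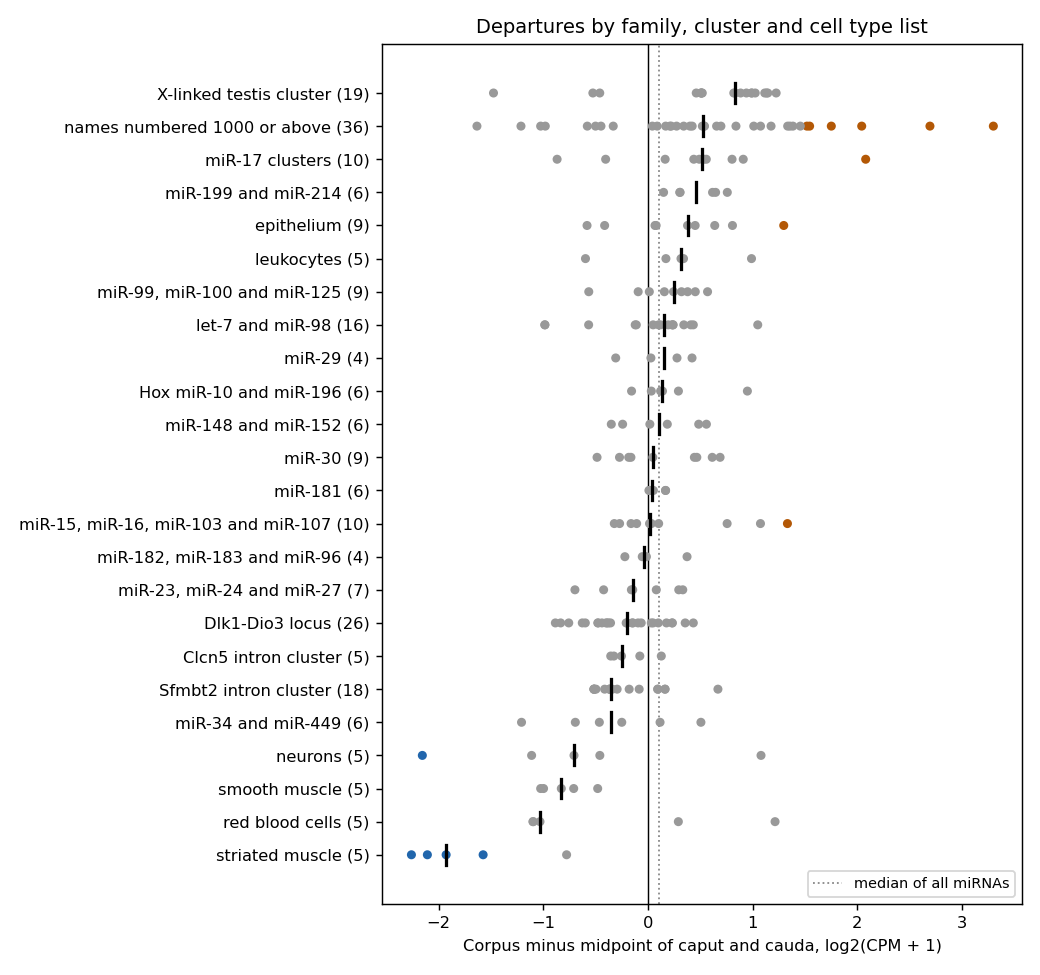
Departure of every member (points) of each list with at least 4 members, in log2(CPM + 1), with the number of members in brackets, a vertical bar at the list median and a dotted line at the median of all miRNAs, 0.10; orange points are called higher and blue points called lower. The striated muscle list lies wholly below 0, and 16 of 19 in the X-linked testis cluster lie above it.

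Of the families and clusters, the X-linked testis cluster leaned furthest from the line among those with more than 10 members. These miRNAs are expressed in male germ cells from a fast-evolving part of the X chromosome. Of 19 measured, 16 lay above the line and 3 below, beside 57.3% above over all 358 miRNAs. The median was 0.83 (0.65 with TMM scaling), and none was called by limma. miR-465a-3p, miR-465b-3p and miR-465c-3p, all above the line, had near-identical values and may share reads, so they are not 3 separate cases. The shape was mostly an early rise, in 12 of the 19, with the corpus nearer to the cauda than to the caput. Over all 358 miRNAs 85 (23.7%) were early rises, or 42 with TMM scaling. The summed level of the cluster was 188 to 296 CPM in caput libraries, 986 to 1133 CPM in corpus libraries and 1168 to 1895 CPM in cauda libraries. miR-743b-3p had the largest departure above the line, 1.22 (SE 0.42, adjusted p = 0.104). Against the rest, miR-465b-5p had -1.48 (SE 0.49, adjusted p = 0.094) while its near copy miR-465c-5p had 1.13 (SE 0.37, adjusted p = 0.086), a difference that the assignment of shared reads could bear on.

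The Sfmbt2 intron cluster, a large repeat array of miR-466, miR-467 and miR-669 genes, leaned the other way with 5 above and 13 below (median -0.35). With TMM scaling 1 lay above and 17 below. Many of its names, such as miR-466c-3p, miR-466e-3p and miR-466p-3p, had near-identical values, so its members are not all separate cases. The imprinted Dlk1-Dio3 locus had 8 above and 18 below (median -0.20), or 3 and 23 with TMM scaling, and 16 of its 26 members were late rises. Over all 358 miRNAs 57.3% lay above with library-size scaling and 42.2% with TMM scaling. Late rises were 77 (21.5%) of the 358, or 49 with TMM scaling. In the miR-17 clusters 8 of 10 lay above the line (median 0.51), and of these miR-92a-3p alone was called, beside 0.80 for miR-17-5p (adjusted p = 0.271) and -0.40 for miR-19b-3p from the same host transcript. The 6 members of miR-199 with miR-214, made by mesenchymal cells, all lay above (median 0.46, or 5 of 6 with TMM scaling). Among these, miR-199a-3p and miR-199b-3p had near-identical values. None of the members of these lists other than miR-92a-3p was called.

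The other families had medians on both sides of that of all miRNAs, some of them near it. The medians were 0.16 for 16 members of let-7 with miR-98, 0.05 for 9 of miR-30, 0.04 for 6 of miR-181, 0.13 for 6 of miR-10 with miR-196, 0.24 for 9 of miR-99, miR-100 and miR-125, 0.10 for 6 of miR-148 with miR-152 and 0.15 for 4 of miR-29, beside 0.10 over all miRNAs; with TMM scaling all of these but the miR-99 group (0.01) turned negative, as the overall median did. They were -0.36 for 6 of miR-34 with miR-449, -0.45 for 3 of miR-221 with miR-222, -0.25 for 5 of the Clcn5 intron cluster, -0.15 for 7 of miR-23, miR-24 and miR-27 and -0.04 for 4 of miR-182, miR-183 and miR-96. The 3 members of miR-101 had a median of 0.47, the 2 of miR-26 one of 0.19 and the 2 of miR-146 one of 0.30, and none in any of these families was called. In the group of miR-15, miR-16, miR-103 and miR-107 the median of 10 was 0.02, and miR-107-3p was called.

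The miRNAs whose names carry a number of 4 digits, those found late and mostly by sequencing, held 6 of the 15 called higher. Of 36, 28 lay above the line (24 with TMM scaling), with a median of 0.53 (0.29 with TMM scaling), and the 6 made up 16.7% of them, beside 4.19% of all miRNAs; the list was chosen with these calls known. They are miR-7033-5p, miR-3535, miR-3470b, miR-3470a, miR-1839-3p and miR-3473a. As miR-3470b and miR-3470a may share reads, the 6 are not all separate cases. The largest departure below the line in this list, that of miR-1957a, was -1.64 (SE 0.68, adjusted p = 0.157). Of 7 miRNAs that the annotation places in small nucleolar RNA genes, 6 lay above the line, with a median of 0.70, and miR-3535 and miR-677-3p were called. The 7 include both arms of the miR-677 hairpin, and the call of miR-677-3p was lost with TMM scaling, median-of-ratios scaling and limma-voom. Over all miRNAs 57.3% lay above the line.

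The departures of miRNAs with the seed of miR-92a-3p ranged widely. The seed AUUGCAC is common to miR-92a-3p and the miRNAs below. Over the 21 bases of miR-92a-3p, miR-25-3p differs from it by U1C, C14U and C18U and miR-92b-3p by U10C and G21C. Positions are counted from base 1 at the 5′ end with the base of miR-92a-3p first. Both miR-25-3p and miR-92b-3p are longer, at 22 bases.
miR-25-3p: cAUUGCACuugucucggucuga
miR-32-5p: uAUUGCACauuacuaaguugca
miR-92b-3p: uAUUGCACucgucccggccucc

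Against 2.08 for miR-92a-3p, their departures were 0.16 (95% interval -0.51 to 0.84), 1.03 (0.11 to 1.96) and -0.64 (-1.49 to 0.22). The ratio of miR-92a-3p to miR-25-3p came to 0.428, 0.415 and 0.401 for the caput libraries, 1.21, 1.68 and 0.386 for those of the corpus and 0.175, 0.126 and 0.132 for those of the cauda. Corpus replicates 1 and 2 stood above all other libraries, and replicate 3 was at the caput level. As the ratio comes from 1 library at a time, it is free of scaling.

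The other seed partners departed in the same direction. miR-103-3p differs from miR-107-3p by C22G only, miR-200a-3p from miR-141-3p by A17C and G22U, and miR-211-5p from miR-204-5p by A17U.
miR-103-3p: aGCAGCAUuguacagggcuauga
miR-200a-3p: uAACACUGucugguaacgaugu
miR-211-5p: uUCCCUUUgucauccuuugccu

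Their departures were 0.76 (95% interval 0.02 to 1.49), 0.81 (0.17 to 1.44) and 0.96 (0.07 to 1.85), all in the direction of their called partners and none past the adjusted threshold. The ratio of miR-107-3p to miR-103-3p ranged from 0.252 to 0.305 for caput libraries, from 0.419 to 0.520 for corpus libraries and from 0.353 to 0.438 for cauda libraries, with overlap of the last 2 segments. That of miR-141-3p to miR-200a-3p ranged from 6.72 to 13.5, from 13.2 to 14.8 and from 9.94 to 12.4, with caput replicate 2 inside the corpus range. Reads that end short of the differing bases cannot be assigned to 1 member of such a pair with certainty. The partners compared here were chosen with the departures known.

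**Figure D4:**
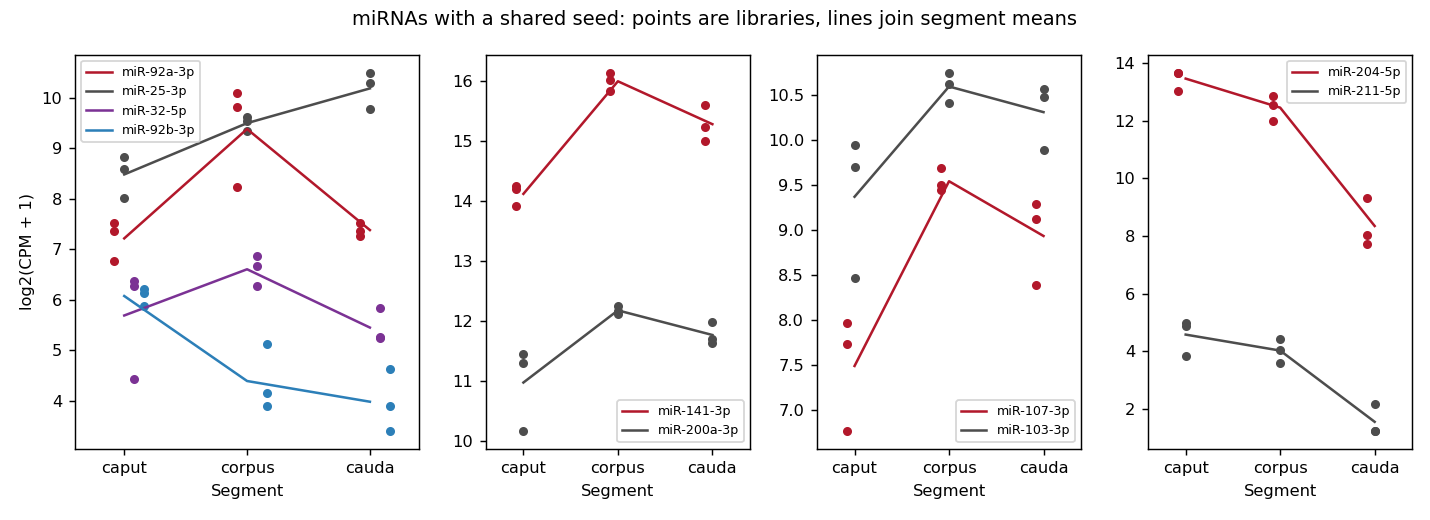
Level in log2(CPM + 1) of 4 called miRNAs (red) and of the miRNAs that share their seed (other colours) by segment, with 1 point per library and lines joining segment means; each panel has its own vertical scale. In 2 of the 3 corpus libraries miR-92a-3p lies above miR-25-3p, and miR-107-3p and miR-103-3p both have their highest mean in the corpus.

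The other miRNAs of highest abundance were not called. miR-10b-5p and miR-10a-5p, encoded in the Hox clusters and together over 33% of the reads in every library, had departures of 0.29 (SE 0.14, adjusted p = 0.246) and 0.03 (SE 0.14, adjusted p = 0.912). miR-143-3p of smooth muscle had -0.48 (SE 0.19, adjusted p = 0.147), miR-148a-3p 0.48 (SE 0.24, adjusted p = 0.262) and miR-30a-5p 0.69 (SE 0.22, adjusted p = 0.086). The direction of miR-10a-5p turned with TMM scaling (-0.21), with median-of-ratios scaling (-0.13), on the linear scale (-0.02) and without caput replicate 3 or corpus replicate 1 (-0.03 and -0.02).

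The corpus did not overlap the other 6 libraries from above for 19 miRNAs (5.31%) and from below for 4 (1.12%); 11 of these 23 were among the 22 called. Over 79 hairpins with both arms measured, the arms lay on the same side of the line for 52, with a median absolute difference between their departures of 0.34. The share of a miRNA's bases that were G or C had a Spearman rho of 0.02 with its departure across the 299 miRNAs whose sequence was used. It is given as a description over names that share libraries.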

How the data were processed

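Epididymosome small RNA libraries, 3 per segment, were grouped by the segment and replicate in the sample labels. The authors screened the reads against contaminants, assigned them to mature miRNAs with miRDeep2 and deposited CPM values, that is counts divided by library size; the processing notes name CASAVA 1.8.2, Bowtie 1.1.1 and limma. The genome build and miRBase release are not given in the sources used here. In each library 100% of the values were whole multiples (within 0.05) of the value of 1 read, which gave the depths; as 6 to 82 values per library fell at 20 reads or fewer, the read numbers are inferred from few low values. Floors (3 reads) cover counting error only. Groups of names with near-identical values (20 names in 9 groups) may share reads.

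Values were tested as log2(CPM + 1) with limma 3.58 in R 4.3 (lmFit, eBayes with trend, segment as the only factor), contrasting the corpus with the average of caput and cauda. All 358 miRNAs reached a segment mean of 10 CPM somewhere and were tested, with Benjamini-Hochberg adjustment over all. Called means an adjusted p under 0.05 and at least 2-fold. Named miRNAs are the 12 called with the largest departure in each direction, the 3 largest of each intermediate shape, the 6 most abundant and up to 4 per list; seed partners, arms, and the few others were named after their values were seen. The contrast, members and lists were chosen with earlier results of these data known. Scripts were tested on simulated data. Mature sequences and coordinates are RefSeq's on GRCm38.p6 and host genes GENCODE's. Tables were handled with Python 3.11, numpy 2.4, pandas 2.3 and matplotlib 3.10. Alternatives were TMM and median-of-ratios scaling, other pseudocounts and filters, limma-voom, no trend, a replicate block, merged names, a linear scale and each library left out.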

Additional observations from a re-analysis of the deposited data

How the results depend on the processing

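Of the 22 called miRNAs, 5 (miR-133b-3p, miR-141-3p, miR-3470b, miR-3535 and miR-7033-5p) kept their call under every alternative with a test that could be run for them. Over the 22, the alternatives with a test gave 361 results with the same call and 72 in which the call was lost, all in the same direction. On the linear CPM scale, which has no test, 17 of the named miRNAs moved by less than the spread between replicates, 8 by more in the same direction (miR-375-3p to 0.27, miR-190a-5p to 1.41 and the late rises and miR-143-3p further below the line), and 2 turned. The results that turned were miR-204-5p on the linear CPM scale (-0.037) and miR-10a-5p with TMM scaling (-0.21, and -0.21 with the block added), median-of-ratios scaling (-0.13), the linear scale (-0.0152), and without caput replicate 3 or corpus replicate 1 (-0.0253 to 0.0956 with each library left out in turn). The count of 7 lower miRNAs became 19 with TMM scaling (27 without the fold criterion), 16 with median-of-ratios scaling (22), 3 with a mean of 10 CPM required in all 3 segments (3, of 245 tested) and 3 with limma-voom (3); 15 called miRNAs had the corpus outside the range of the other segments, against 25 with TMM and 24 with median-of-ratios scaling. The cause of these shifts was not tested. With each library left out in turn, 5 to 25 miRNAs were higher and 3 to 13 lower (5 to 28 and 3 to 14 by adjusted p alone), 5 to 25 called ones lay outside the range, and 0 to 3 peaks and 0 troughs passed; the fewest, 5 higher and 3 lower, were left without corpus replicate 2 and the most higher ones, 25, without caput replicate 3. In the same way the corpus exceeded the other libraries by -1.75 to 16 miRNAs at 10 CPM or more and by 0.544 to 2.64 in effective number; the former turned negative, at -1.75, without caput replicate 2. Of 9 pairs of libraries with the same number, 6 had deviations correlated above 0.1 and 3 did not (-0.211 to 0.411, and -0.447 to 0.179 over 18 pairs of unlike number), so the numbers were not taken as pairs, which needed all 9; with the replicate block 17 were higher and 6 lower, miR-192-5p not among them (adjusted p = 0.055), and 3 peaks passed. TMM scaling with the replicate block, chosen after the values were seen, gave 19 lower (26 by adjusted p alone), 28 outside the range and 1 trough. A planned count-based quasi-likelihood test was not run, since only 6 to 82 values per library were of 20 reads or fewer, too few to fix the worth of 1 read by the check used for count models; read numbers and limma-voom rest on that step. Depth limits the calls of miRNAs near 10 CPM, which have as few as 15.5 reads in corpus replicate 3.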

Other observations

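With TMM scaling 12 further miRNAs passed as lower than the midpoint and 1 as higher, and these were named after their values were seen. miR-34c-5p, a miRNA of ciliated cells and male germ cells, held 798, 164 and 689 CPM in caput libraries, 328, 381 and 342 CPM in corpus libraries and 1355, 1710 and 1341 CPM in cauda libraries, with caput replicate 2 below the corpus. Its departure was -1.21 (limma, adjusted p = 0.104) with library-size scaling and -1.45 (adjusted p = 0.0115) with TMM scaling. miR-149-5p, at 107, 37.0 and 131 CPM, then 36.8, 24.3 and 23.9 CPM, then 56.0, 44.4 and 54.4 CPM, had its 3 corpus values below all others, although corpus replicate 1 and caput replicate 2 nearly met (departure -1.18, adjusted p = 0.104, and -1.41, adjusted p = 0.0103, with TMM scaling). The other troughs of this kind were miR-582-5p, miR-31-3p and the names let-7c-2-3p and let-7a-1-3p, which have nearly the same values throughout. miR-145a-3p, miR-378d, miR-338-5p and miR-465b-5p were late rises, and miR-671-3p and miR-9-5p early falls. The 1 higher miRNA was miR-677-5p, the other arm of the miR-677 hairpin (departure 1.43, adjusted p = 0.069, and 1.19, adjusted p = 0.034, with TMM scaling).

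Among miRNAs that were not called, miR-210-3p, which is induced by low oxygen, had a corpus peak without overlap. It measured 453, 212 and 642 CPM in caput libraries, 783, 1101 and 685 CPM in corpus libraries and 364, 348 and 301 CPM in cauda libraries. Its departure of 1.20 was the largest of the miRNAs without overlap that missed the threshold (limma, adjusted p = 0.069).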
